A study of Mus musculus with 3 samples.

Results

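The 9 genes described here carry antigen presentation by MHC class I: the classical heavy chain genes H2-K1 and H2-D1, the light chain gene B2m, the nonclassical heavy chain genes H2-Q7 and H2-T23, the peptide transporter genes Tap1 and Tap2, the gene of the loading bridge tapasin, Tapbp, and the transactivator gene Nlrc5. They were chosen by name from the 32285 genes of the matrices. Gene expression was measured in spleen cells by 5′ single-cell RNA sequencing in 3 libraries, after T cells had been removed with CD3 microbeads. The control library pooled sham-pumped male C57Bl/6 mice and female C57Bl/6 mice. The AngII library pooled C57Bl/6 mice with minipumps delivering angiotensin II for 2 weeks, at 490 ug/kg/min as the labels give it, with placebo or with 2-hydroxybenzylamine (2-HOBA), a scavenger of reactive lipid aldehydes. The B6.SLE123 library pooled lupus-prone B6.SLE123 mice given placebo or 2-HOBA for 6 weeks from 7 weeks of age. Animals were 12 to 14 weeks old at harvest, and the cells of 3 mice were combined in each condition. In each library 6 hashtag antibodies, C0301 to C0306, marked cell populations, but the labels do not tie a hashtag to a condition. The conditions within a library were therefore not compared, and sex, strain, treatment and library cannot be told apart between the pooled libraries. The sex of each population is read from Xist below.

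MHC class I molecules carry short peptides from inside the cell to its surface, where CD8 T cells read them and natural killer (NK) cells sense their absence. Proteasomes cut the peptides, the transporter pumps them into the endoplasmic reticulum, tapasin holds an empty heavy chain to the transporter, and the heavy chain leaves with its light chain once a peptide is bound. Interferons raise most steps of this pathway, in part through NLRC5, which acts at class I promoters.

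After filtering, 15700, 14017 and 16702 cells were kept in the control, AngII and B6.SLE123 libraries, with a median of 1759, 2724 and 1888 unique molecular identifiers (UMIs, each standing for 1 captured RNA molecule) per cell. The pairs of libraries shared 415 to 496 cell barcodes. Cells were classed by marker genes, and class names end in -like for that reason. B cell-like cells made up 85.2%, 83.7% and 77.9% of kept cells. Xist was found in 49.2% to 51.7% of the cells of control hashtags C0304 to C0306 and in 0.165% to 0.386% of those of C0301 to C0303. It was found in 46.6% to 54.9% of cells in the 6 B6.SLE123 populations and in 0% in AngII. Xist is expressed in female cells, and the control library is labelled as male sham and female mice. Control C0304 to C0306 are thus read as the female populations and C0301 to C0303 as the male sham ones. Sex and sham pumping cannot be told apart between them. By Xist the AngII populations were male and the B6.SLE123 populations female.

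Of the genes, 7 lie on mouse chromosome 17, within or beside the major histocompatibility complex (GRCm38, GENCODE vM21). They are Tapbp (chr17:33915899-33929292, + strand), H2-K1 (chr17:33996017-34000347, - strand), Tap1 (chr17:34187553-34197225, + strand), Tap2 (chr17:34203527-34216321, + strand), H2-D1 (chr17:35262730-35267499, + strand), H2-Q7 (chr17:35439155-35443773, + strand) and H2-T23 (chr17:36029773-36032855, - strand). B2m lies on chromosome 2 (chr2:122147686-122153083, + strand) and Nlrc5 on chromosome 8 (chr8:94434356-94527272, + strand). All 9 are annotated as protein coding.

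Promoters are shown for their letters alone, and a link between them and the levels below was not tested. RefSeq promoter sequences (GRCm38.p6) were found for 7 of the 9 genes, and Tap2 and Nlrc5 had no entry. The 250 bases before the start are printed 5′ to 3′ on the gene's strand for the 4 genes with the most to compare. Capitals mark matches to a kB-like motif (the longer run in the heavy chain genes) and to an interferon response-like motif (AANNGAAA), both searched on both strands. The RefSeq starts used for the windows can differ from the GENCODE gene starts above, as for H2-D1.
H2-K1 (chr17:34000348-34000597, - strand): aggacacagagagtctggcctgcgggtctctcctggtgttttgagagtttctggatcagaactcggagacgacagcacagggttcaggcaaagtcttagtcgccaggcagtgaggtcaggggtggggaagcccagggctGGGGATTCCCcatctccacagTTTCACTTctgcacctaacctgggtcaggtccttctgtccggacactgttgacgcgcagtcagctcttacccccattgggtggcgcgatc
H2-D1 (chr17:35262844-35263093, + strand): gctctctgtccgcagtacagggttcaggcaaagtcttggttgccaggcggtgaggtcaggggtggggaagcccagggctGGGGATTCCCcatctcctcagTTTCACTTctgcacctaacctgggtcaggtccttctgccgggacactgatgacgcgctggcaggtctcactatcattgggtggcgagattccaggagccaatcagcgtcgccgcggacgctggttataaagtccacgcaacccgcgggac
H2-Q7 (chr17:35438905-35439154, + strand): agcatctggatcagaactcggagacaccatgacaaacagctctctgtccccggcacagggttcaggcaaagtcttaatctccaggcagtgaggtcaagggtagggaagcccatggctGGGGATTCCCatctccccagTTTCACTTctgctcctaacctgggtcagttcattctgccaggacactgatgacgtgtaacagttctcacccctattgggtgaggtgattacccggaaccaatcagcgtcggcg
B2m (chr2:122147437-122147686, + strand): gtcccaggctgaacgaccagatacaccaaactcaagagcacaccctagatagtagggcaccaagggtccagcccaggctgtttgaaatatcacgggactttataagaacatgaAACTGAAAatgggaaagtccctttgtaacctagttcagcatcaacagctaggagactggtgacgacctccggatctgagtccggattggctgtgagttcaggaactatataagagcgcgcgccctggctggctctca
In H2-K1, H2-D1 and H2-Q7 the kB-like motif stood just upstream of the interferon response-like motif, which was read on the opposite strand as TTTCACTT. The kB-like motif was present in 0.0814% of 27025 promoters of the same length, and the interferon response-like motif in 21.6%. A longer exact run is rarer by its length alone, so these shares are not compared with each other. B2m held the interferon response-like motif without the exact kB-like run, and H2-T23 held the interferon response-like motif in 2 places. Other forms of a kB site were not searched, so their absence is not shown. Neither motif was found in the Tap1 and Tapbp windows. Another motif, TGACG, searched in the same way, was present in the windows of H2-K1, H2-D1, H2-Q7, B2m and Tap1, and in 17.9% of all promoters. These matches describe letters and do not show binding.

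Levels are given as CPM, the UMIs of a gene scaled to the same total in every class and library, with exact Poisson 95% intervals that cover counting error only. There was 1 library per group, so no difference has a replicate check and none was tested. CPM is a share of a cell's captured RNA, so less of a transcript and more of all others cannot be told apart.

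Classes were ordered where each library held at least 20 cells, and with the germinal centre B cell-like subset this gave 12. Across these the classical chains were carried most by migratory dendritic cell (DC)-like, NK cell-like and nonclassical monocyte-like cells. In the control library H2-K1 stood at 4220 CPM (95% interval 3766 to 4712) in migratory DC-like cells and at 3890 (3775 to 4009) in NK cell-like cells, whose intervals overlapped. It was 1985 CPM in B cell-like cells, 1159 (1047 to 1280) in germinal centre B cell-like cells and 638 (595 to 683) in neutrophil-like cells, the lowest of 12 classes. The same class was lowest in the AngII library at 260 CPM and in B6.SLE123 at 582 CPM. The span between the lowest and highest class was 6.61-fold in control and 7.60-fold in B6.SLE123, and it was wider in AngII, where migratory DC-like cells held 3894 CPM.

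H2-D1 followed another order. Nonclassical monocyte-like cells held 4816 CPM (4630 to 5007) in the control library and migratory DC-like cells 4501 (4032 to 5009), with overlapping intervals, while germinal centre B cell-like cells were lowest at 1099 (990 to 1218). Neutrophil-like cells carried 2192 CPM of H2-D1, slightly above the 1920 CPM of B cell-like cells, although their H2-K1 was far lower. The number of H2-K1 UMIs per 100 of H2-D1 gives this contrast without a common total. It was 29.1, 18.8 and 32.6 in neutrophil-like cells of the control, AngII and B6.SLE123 libraries and 45.9, 34.0 and 43.0 in classical monocyte-like cells. It was 103, 84.6 and 105 in B cell-like cells while NK cell-like cells stood at 105 in control and 91.1 in AngII, and plasma cell-like cells stood at 160, 129 and 111. The ratio counts captured RNA molecules, so it is compared between classes and not read as a ratio of proteins. How reads were divided between these heavy chain genes was not examined.

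B2m, the light chain shared by all class I molecules, was highest in migratory DC-like cells of all 3 libraries, at 5760 CPM (5228 to 6331), 6002 and 5431 in control, AngII and B6.SLE123. Its lowest control level was in germinal centre B cell-like cells, at 1099 CPM (990 to 1218). In those cells Tap1 was not low: it stood at 114, 169 and 160 CPM in the 3 libraries, beside 132, 118 and 144 in all B cell-like cells.

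H2-Q7 encodes a Qa-2 heavy chain. It was highest in NK cell-like cells among the 12 ordered classes, at 713 CPM (664 to 765), 656 and 663, and low in classical monocyte-like cells, at 29.5 (19.5 to 42.9), 12.3 and 67.1. Plasmacytoid DC-like cells, of which the AngII library held only 19, carried 812, 729 and 532 CPM. H2-Q7 is nearly identical to its neighbour H2-Q6, so how reads were divided between them is uncertain, and H2-Q6 is given beside it below. H2-T23 encodes Qa-1, the chain read by NKG2A on NK cells. Among the 12 ordered classes it was highest in migratory DC-like cells, at 924 CPM (719 to 1170), 1247 and 779. In plasmacytoid DC-like cells, which are not among them, H2-T23 stood at 1032 CPM in control without C0305. The B6.SLE123 log2 ratio to that level was 0.11 (-0.25 to 0.47). The control level of H2-T23 in neutrophil-like cells was 266 (239 to 296).

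The peptide-loading genes were led by DC-like cells. Tap1 stood at 362 CPM (238 to 526) in migratory DC-like and 205 (148 to 277) in cDC1-like cells of the control library, with overlapping intervals. Tap2 stood at 228 (133 to 365) and 224 (164 to 299) in the same classes. Tapbp reached 375 CPM (249 to 542) in migratory DC-like cells, against 59.7 (36.5 to 92.3) in germinal centre B cell-like cells. Nlrc5 was sparse: 28.4 CPM in control B cell-like cells, 56.3 in NK cell-like cells and 6.99 (3.19 to 13.3) in neutrophil-like cells.

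**Figure D1:**
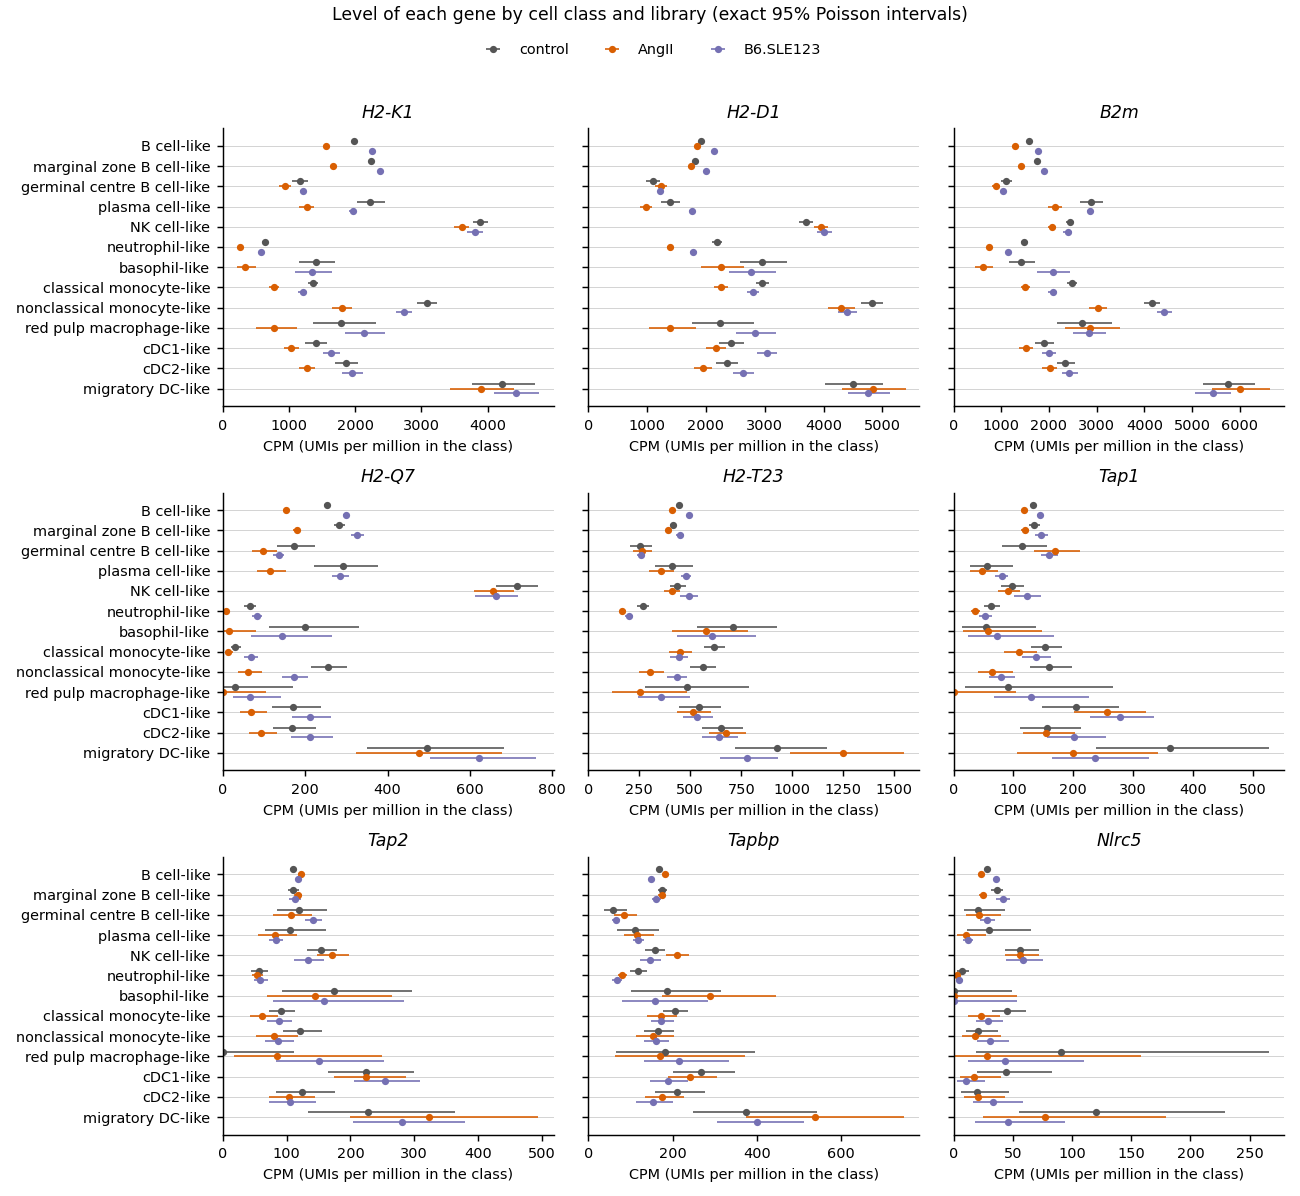
CPM of the 9 genes on the x axis in 13 marker-gated classes, 2 of them subsets of the B cell-like class, with exact 95% Poisson intervals as bars and 1 colour per library. Migratory DC-like cells lead for H2-K1, B2m and Tapbp in each library, neutrophil-like cells are lowest for H2-K1, and NK cell-like cells lead for H2-Q7.

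Over 33 levels (11 classes in 3 libraries), the 5 genes outside the set whose pattern was closest to the summed H2-K1, H2-D1 and B2m level were Cblb (Pearson r = 0.838 of log2(CPM + 10)), Nsmce3 (0.790), Adora2a (0.782), Psmb10 (0.781) and Edf1 (0.765), of 7712 genes compared. These levels share libraries, and small classes share their low depth. Psmb10 is an immunoproteasome subunit and Cblb a ubiquitin ligase of lymphocytes. Among the members themselves, r with that sum was 0.69 for H2-Q7, 0.68 for Nlrc5, 0.59 for H2-T23, 0.56 for Tapbp, 0.46 for Tap1 and 0.38 for Tap2.

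In B cell-like cells, which hold most of the UMIs, heavy and light chain transcripts were modestly higher in B6.SLE123 than in the pooled control and modestly lower in AngII, but both differences depended on which control populations were used. All B6.SLE123 populations had Xist and no AngII population had it, while the control library mixed both kinds. Matching by Xist still leaves strain or treatment tied to the library. Against the 3 control populations with Xist, the B6.SLE123 log2 ratio was -0.02 for H2-K1, -0.13 for H2-Q7, 0.062 for H2-D1 and 0.069 for B2m. Without control C0305, which is 1 of those 3, the same ratios were 0.21, 0.33, 0.15 and 0.18. C0305 was singled out after its high levels were seen, so values without it, here and below, are not an independent check. Against the 3 control populations without Xist, the AngII log2 ratio was -0.12 for H2-K1, -0.21 for H2-Q7, 0.044 for H2-D1 and -0.19 for B2m. The values that follow are against the pooled control unless another is named. Where populations of different libraries are said to lie apart, the share of all genes doing so was not counted. H2-K1 ranged from 1588 to 2852 CPM over the 6 control populations with a median of 1838, from 1516 to 1616 in AngII with a median of 1566, and from 2045 to 2588 in B6.SLE123 with a median of 2254. The AngII populations lay close together, and 5 of the 6 were below the lowest control population. All 6 B6.SLE123 populations were above 5 of the 6 control populations, and the remaining control population, C0305, was above every population of the study. The ratio of the whole libraries was 1.14-fold for B6.SLE123 over control (log2 ratio 0.18, 95% interval 0.17 to 0.20), and AngII over control was 0.787-fold (-0.35, -0.36 to -0.33).

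H2-D1 moved less in AngII. It ranged from 1717 to 2271 CPM in control populations (median 1894), from 1816 to 1939 in AngII (median 1833) and from 2059 to 2210 in B6.SLE123 (median 2136). AngII populations lay inside the control range. All 6 B6.SLE123 populations lay below control C0305, at 2271 CPM, and above the other 5 control populations. B6.SLE123 over control gave a log2 ratio of 0.16 (0.14 to 0.17), and AngII gave -0.05 (-0.07 to -0.04). B2m ranged from 1381 to 1902 CPM in control (median 1557), 1235 to 1392 in AngII (median 1278) and 1612 to 2068 in B6.SLE123 (median 1741). Its log2 ratios were 0.17 (0.15 to 0.19) and -0.29 (-0.30 to -0.27), and 5 of the 6 AngII populations lay below all control ones.

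H2-Q7 had the widest spread of the set. The 6 control populations C0301 to C0306 held 154, 207, 172, 222, 481 and 252 CPM. The AngII populations held 144 to 167 CPM with a median of 150, and the B6.SLE123 populations 232 to 419 with a median of 292. C0305 stood far above the other control populations, and C0303 was the highest in B6.SLE123. The log2 ratio was 0.25 (0.20 to 0.29) in B6.SLE123. In AngII it was -0.71 (-0.76 to -0.66), the only member ratio in B cell-like cells past 1.5-fold, and it shrank to -0.39 without control C0305, which ends that call. H2-Q6 gave 250 CPM in control, 172 in AngII and 264 in B6.SLE123, log2 ratios of -0.54 (-0.59 to -0.49) and 0.08 (0.04 to 0.13).

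H2-T23 held 412 to 541 CPM in control populations (median 429), 391 to 442 in AngII (median 406) and 446 to 569 in B6.SLE123 (median 492). Its log2 ratio was 0.15 (0.12 to 0.18) in B6.SLE123 and -0.11 (-0.14 to -0.07) in AngII. Tap1 followed the heavy chains, with 107 to 174 CPM in control, 99.3 to 130 in AngII and 120 to 173 in B6.SLE123, and log2 ratios of 0.12 (0.06 to 0.19) and -0.17 (-0.23 to -0.10). Nlrc5 ranged from 21.1 to 43.8 CPM in control, from 18.7 to 27.2 in AngII and from 24.5 to 43.7 in B6.SLE123. Its log2 ratio in B6.SLE123, 0.34 (0.20 to 0.47), was the highest of the 9 genes, and its AngII ratio was -0.30 (-0.45 to -0.16).

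In AngII the ratios of Tap2 and Tapbp had the other sign, and in B6.SLE123 only that of Tapbp did. The B6.SLE123 ratio of Tap2 was close to that of Tap1, 0.12. Tap2 ranged from 97.8 to 127 CPM in control, from 104 to 133 in AngII and from 104 to 130 in B6.SLE123, so that the ranges lay almost on each other, and its log2 ratios were 0.10 (0.04 to 0.17) in B6.SLE123 and 0.15 (0.09 to 0.22) in AngII. Tapbp was the 1 member that was lower in B6.SLE123, at 137 to 160 CPM against 150 to 181 in control, a log2 ratio of -0.16 (-0.22 to -0.11). Its AngII populations held 175 to 191 CPM, a log2 ratio of 0.13 (0.08 to 0.19).

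Counted over the set, 8 of the 9 genes were higher in B6.SLE123 with the interval clear of 0, against 27.7% of the 11366 genes with at least 50 UMIs, and 1, Tapbp, was lower, against 33.9%. Counting intervals narrow as UMIs rise, so a gene with many UMIs clears 0 at a smaller ratio than a gene near 50 UMIs. H2-K1 had 69803 UMIs in B6.SLE123 and 55111 in control, and Nlrc5 had 1112 and 789. The shares of all genes were not matched for this, here or for the lists below. The median log2 ratio of the 9 was 0.16, beside -0.05 over all genes. None of the 9 was at least 1.5-fold higher, against 9.77% of all genes, and none was at least 1.5-fold lower, against 6.62%. In AngII 7 of 9 were lower with the interval clear of 0 (17.4% of 11342 genes) and 2 were higher (30.2%), with a median of -0.17 beside 0.06 over all genes. One of 9 was at least 1.5-fold lower (2.33% of all genes) and none was at least 1.5-fold higher (3.83%). Against the control populations without Xist, the AngII median was -0.030 and none of the 9 was at least 1.5-fold lower. Against those with Xist, the B6.SLE123 median was 0.062. Without control C0305, AngII intervals reached 0 for H2-D1 (0.005, -0.013 to 0.022), Tap1 (-0.06, -0.13 to 0.009) and Nlrc5 (-0.12, -0.28 to 0.04). The other members stayed clear of 0, with H2-T23 close to it (-0.039, -0.076 to -0.002). Both contrasts share the control library, so a control level that is high by itself moves them in the same direction.

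**Figure D2:**
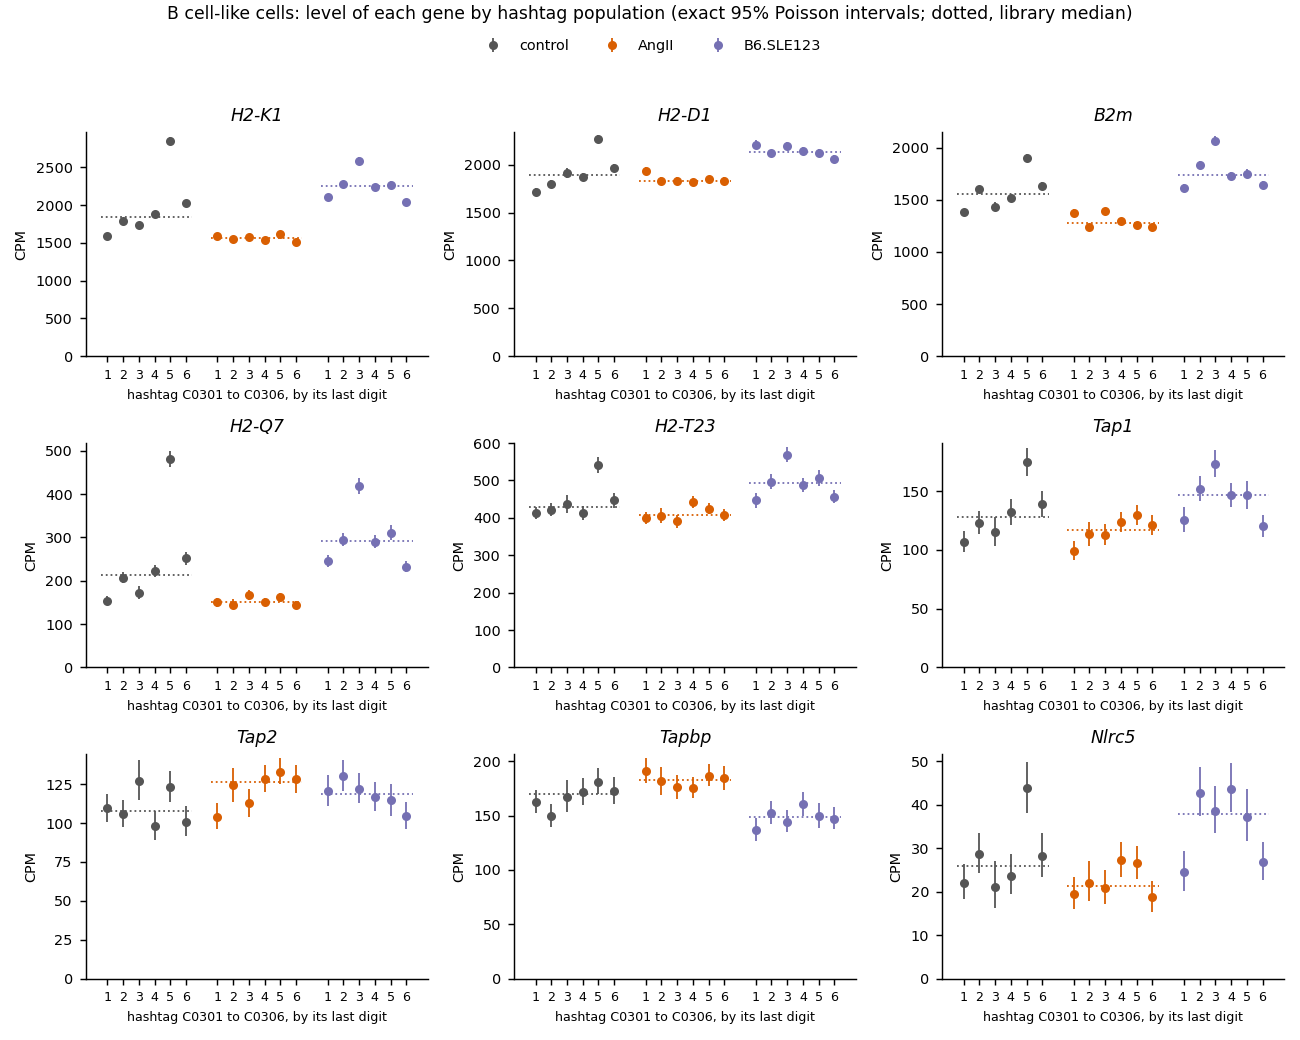
CPM of the 9 genes in B cell-like cells, 1 point per hashtag population with its exact 95% Poisson interval, libraries side by side on the x axis and the library's median as a dotted line. Control hashtag C0305 stands above the other 5 control populations for H2-K1, H2-Q7, H2-T23 and Nlrc5, while the 6 AngII populations lie close together for H2-K1 and H2-Q7 and Tap2 is nearly level.

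The control population C0305 stood apart in both B cell subsets that could be separated. H2-K1 reached 3059 CPM in its marginal zone B cell-like cells, where the control median was 1978, and 2769 CPM in B cell-like cells outside the marginal zone and germinal centre subsets, where it was 1813. H2-Q7 reached 465 and 487 CPM in the same subsets. When each B cell was thinned to 1000 UMIs, 6.62% of the 2084 cells of C0305 had no H2-K1 UMI, against 16.8% to 23.7% in the other control populations. At least 4 H2-K1 UMIs were found in 34.0% of its cells against 10.2% to 16.3%, and at least 1 H2-Q7 UMI in 39.0% against 13.2% to 22.1%. C0305 thus had both fewer cells without the transcript and more cells with many copies. Its mean was 2.93 H2-K1 UMIs per thinned cell against 1.59 to 2.00, and a higher mean by itself moves both shares. Unthinned values were the CPM above. Counts of at least 1 UMI include free RNA, which was not estimated.

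Other measures of C0305 are given beside this. Its B cell-like cells had a median of 1882 UMIs against 1656 to 1843 in the other control populations, and 19.0% were marginal zone B cell-like against 9.77% to 16.5%. Neutrophil marker RNA within its B cell-like cells summed to 129 CPM, inside the range of 43.1 to 129 CPM of the others. It held 85 classical monocyte-like cells against 9 to 37 in the others, and 191 neutrophil-like cells against 41 to 151. Iigp1, an interferon gamma-induced GTPase, had 78 UMIs in its B cell-like cells (15.5 CPM) against 0 to 4 UMIs in the others, and the highest value in B6.SLE123 was 7.50 CPM in C0303. The part of these measures in the levels was not tested.

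Genes that act before or beside the 9 were described by lists. All 5 immunoproteasome genes were higher in B6.SLE123 B cell-like cells with intervals clear of 0, with a median log2 ratio of 0.36, where 27.7% of all genes were higher in this way. Psmb9, which encodes a catalytic subunit, stood at 274 CPM in control and 368 in B6.SLE123 (log2 ratio 0.42, 0.38 to 0.47), and Psmb8, the gene of another, at 505 and 647 CPM (0.36, 0.33 to 0.39). In AngII all 5 were lower, where 17.4% of all genes were, with a median of -0.18. Without control C0305, 3 of the 5 were lower by intervals clear of 0, and no share of all genes was counted for that setting. Psmb9 was at 204 CPM (-0.43, -0.48 to -0.38). The summed immunoproteasome level ranged from 1458 to 1902 CPM in control populations, from 1387 to 1558 in AngII and from 1716 to 2308 in B6.SLE123. The lowest control value was in C0303, without Xist, and the highest in C0305. No list was compared with the control populations split by Xist, so how far these differences depend on that split is unknown. The 3 constitutive catalytic subunits, which the immunoproteasome subunits replace, had medians of 0.23 and -0.26, the same signs.

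The other lists were less uniform, and their counts are read against the same shares of all genes, which were 27.7% higher and 33.9% lower in B6.SLE123 and 30.2% higher and 17.4% lower in AngII. The 5 loading chaperone and peptide editing genes had medians of 0.04 in B6.SLE123, with 1 higher and 2 lower by intervals clear of 0, and 0.13 in AngII, with 3 higher and 1 lower. The 10 promoter factor genes had medians of -0.18, with 3 higher and 6 lower, and 0.05, with 4 higher and 1 lower. Of the other class I and class I-like heavy chain genes, 8 of 14 had at least 50 UMIs in the B6.SLE123 contrast, with 3 higher, 3 lower and a median of -0.12, and 9 in AngII, with 3 higher, 2 lower and a median of 0.09. For the 9 measured interferon gamma targets the medians were 0.26, with 6 higher and 2 lower, and -0.14, with 0 higher and 4 lower. For the 11 measured type I interferon targets they were 0.23, with 5 higher and 1 lower, and -0.17, with 2 higher and 5 lower. The class I-like list holds H2-Q6, whose reads may be shared with H2-Q7. Without control C0305 the interferon gamma target medians were 0.65 in B6.SLE123, with 7 higher and 0 lower, and 0.05 in AngII, with 2 higher and 1 lower. The type I target medians were then 0.28 in B6.SLE123, with 5 higher and 0 lower, and -0.08 in AngII, with 4 higher and 4 lower. Each list is read beside the medians of all genes, -0.05 and 0.06, which like the shares include C0305.

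By the rule of the 3 highest and 3 lowest ratios in these lists, the B6.SLE123 contrast gave Socs1, Bst2 and Usp18 at the top. Socs1, a feedback inhibitor of cytokine signalling, stood at 14.2 CPM in control and 41.0 in B6.SLE123 (log2 ratio 1.53, 1.37 to 1.70), and its 6 B6.SLE123 populations held 24.6 to 57.8 CPM against 7.09 to 20.7 in control. Bst2, the antiviral protein tetherin, stood at 70.1 and 132 CPM (0.91, 0.83 to 0.99). Its populations held 62.9 to 83.7 CPM in control and 108 to 150 in B6.SLE123. Usp18 had a log2 ratio of 0.68 (0.38 to 0.98). At the bottom were Iigp1 (-0.60, -1.10 to -0.11), the lipid-presenting chain gene Cd1d1 (-0.50, -0.61 to -0.38) and the neonatal Fc receptor gene Fcgrt (-0.46, -0.67 to -0.24). Without control C0305 the direction of Iigp1 turned, with 5 UMIs left in control against 61 in B6.SLE123 (3.16, 1.86 to 4.84). Cd1d1 held 90.6 CPM in C0305 against 31.6 to 47.6 in the other control populations, and its ratio without C0305 was -0.21 (-0.34 to -0.09).

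In AngII the 3 highest were H2-Q10 (0.99, 0.23 to 1.82, from 20 UMIs in control and 52 in AngII), Ifit1 (0.41, 0.02 to 0.81) and Irf7 (0.37, 0.19 to 0.56). The 3 lowest were Iigp1, with 1 UMI in AngII and 83 in control (-6.76, -12.1 to -4.24), H2-Q6 and Ifi27l2a (-0.51, -0.55 to -0.48). Without control C0305, Iigp1 had too few UMIs for a ratio to be read, and H2-Q6 was at -0.30 (-0.35 to -0.24).

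**Figure D3:**
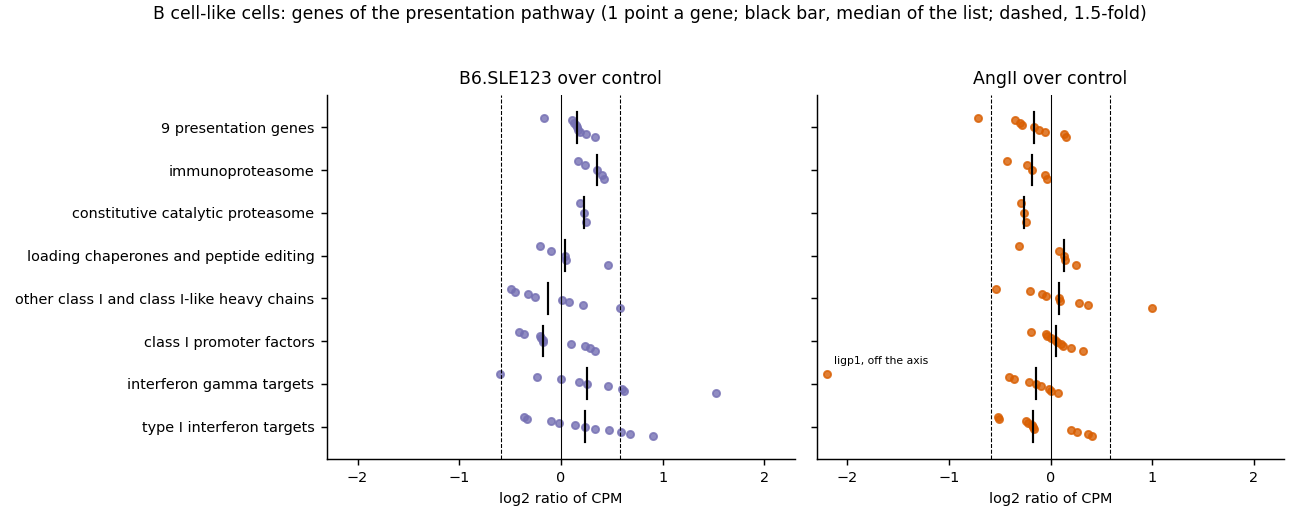
Log2 ratio of CPM to the control library in B cell-like cells on the x axis, 1 point per gene with at least 50 UMIs, by list, with the median of each list as a black bar. All immunoproteasome points lie right of 0 in B6.SLE123 and left of 0 in AngII, and Iigp1 lies off the axis in AngII.

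NK cell-like cells differed little between libraries. H2-K1 ranged from 3752 to 4133 CPM in their control populations, from 3259 to 3962 in AngII and from 3266 to 4437 in B6.SLE123, all overlapping. In B6.SLE123 none of the 9 genes was at least 1.5-fold higher (5.86% of all genes) or lower (4.34%), with a median log2 ratio of -0.03 beside 0.02 over all genes. In AngII none was higher (8.62%) or lower (2.89%), with a median of -0.09 beside 0.07. The AngII ratios ranged from -0.24 (-0.32 to -0.16) for B2m to 0.42 (0.13 to 0.71) for Tapbp.

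In neutrophil-like cells most of the genes were lower in AngII than in the pooled control. In AngII, H2-K1 was 260 CPM against 638 in control (log2 ratio -1.29, -1.44 to -1.15), B2m 749 against 1482 (-0.99, -1.07 to -0.90) and H2-D1 1384 against 2192 (-0.66, -0.73 to -0.59). H2-Q7 had 20 UMIs against 84 (6.58 and 65.2 CPM, -3.31, -4.09 to -2.59). Together with H2-T23 (-0.67, -0.87 to -0.47) and Tap1 (-0.81, -1.24 to -0.38), 6 of the 8 genes with enough UMIs were at least 1.5-fold lower, against 10.1% of all genes, and none was higher (8.58%). Tap2 was level at 53.3 and 55.9 CPM. Without control C0305, which held 191 of the 642 control cells, 2 of the 6 remained past 1.5-fold. They were H2-K1 at -0.80 (-0.98 to -0.63) and B2m at -0.72 (-0.82 to -0.61). H2-Q7, at -1.37 (-2.41 to -0.30), no longer had 50 UMIs. The shares of all genes above include C0305 and were not recounted without it.

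The populations overlapped. H2-K1 in control neutrophil-like cells was 320, 366 and 332 CPM in C0301 to C0303 and 640, 1035 and 987 in C0304 to C0306, the populations with Xist. In AngII it ranged from 171 to 497 CPM with a median of 334, so the first 3 control populations lay inside the AngII range and the other 3 above it. In B6.SLE123, where all populations had Xist, it ranged from 359 to 690 CPM with a median of 580. B2m ranged from 645 to 1235 CPM in AngII and from 1054, in C0302 without Xist, to 2026 in control. For B2m 5 AngII populations lay below the lowest control one, and for Tap1 4 did. For H2-D1 1 did, and for H2-Q7 and Tap2 0 did. The share of all genes doing so was not counted. Transcripts of granulocyte maturation differed as well. Ngp, Camp and Ltf, genes of early granulocyte development, summed to 64431 CPM in control, 90010 in AngII and 98130 in B6.SLE123, and by population from 26497 to 91457 in control and from 53992 to 103737 in AngII. Median depth was 1148, 1997 and 1359 UMIs in the 3 libraries. B cell marker RNA in these cells summed to 168, 83.8 and 115 CPM. The part of these measures in the ratio was not tested.

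In B6.SLE123 neutrophil-like cells 1 of the 8 genes, Tapbp, was at least 1.5-fold lower (67.5 against 118 CPM, -0.81, -1.15 to -0.47), against 18.2% of all genes, and none was higher (14.1%). The median of the 8 was -0.28 in B6.SLE123 and -0.74 in AngII, beside -0.06 and -0.04 over all genes. H2-K1 had a log2 ratio of -0.13 (-0.26 to -0.002) in B6.SLE123, which became 0.36 (0.19 to 0.52) without control C0305. H2-Q7 went from 0.33 (-0.06 to 0.73) to 2.27 without it, from 169 UMIs in B6.SLE123 and 15 left in control. Thus 1 of the 8 genes was then at least 1.5-fold higher, while the shares of all genes include C0305.

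**Figure D4:**
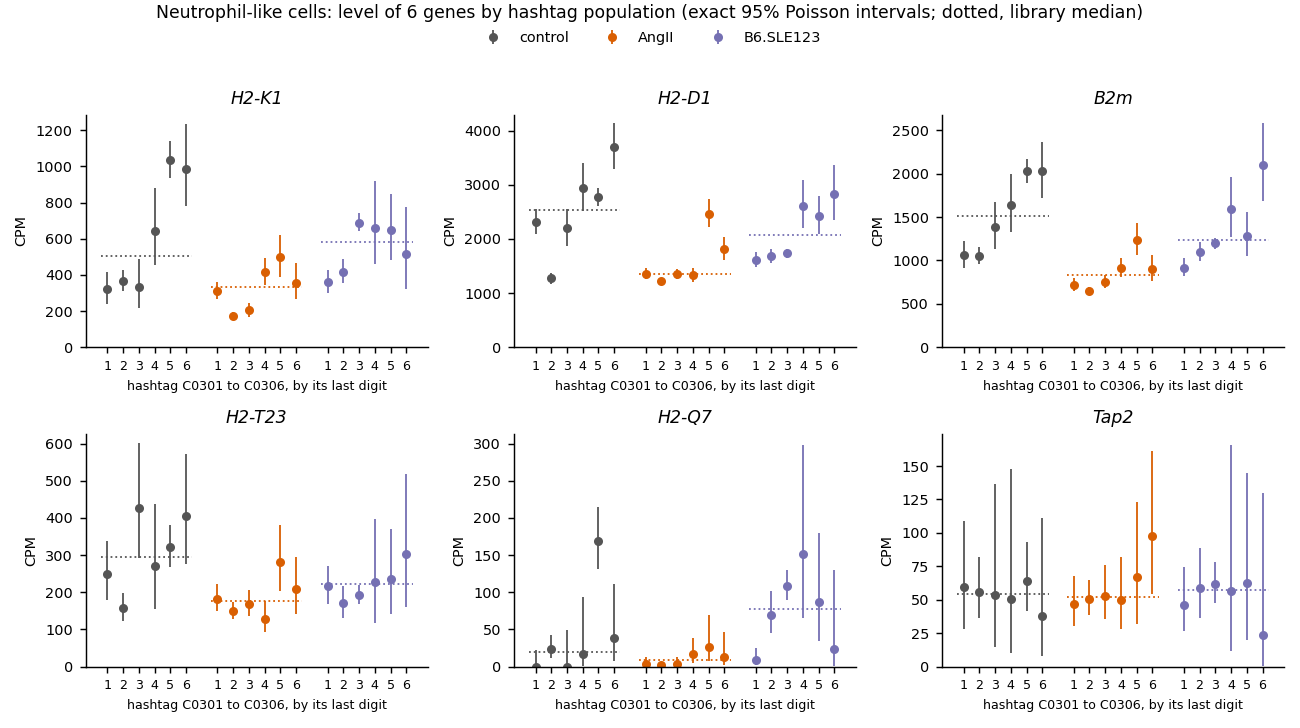
CPM of 6 genes in neutrophil-like cells, 1 point per hashtag population with its exact 95% Poisson interval and the library median as a dotted line. Control C0305 and C0306 lie near 1000 CPM for H2-K1 while the first 3 control populations lie between 320 and 366 CPM, and Tap2 shows no such split.

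Over all classes, 2 genes had AngII ratios of 1 sign against the pooled control, which mixes populations with and without Xist. H2-K1 had a log2 ratio below 0 in all 11 classes with at least 50 UMIs, from -2.08 in basophil-like to -0.11 in NK cell-like cells, with a median of -0.78. Without control C0305 all 11 were still below 0, with a median of -0.53, but C0304 and C0306, which have Xist, remained. Against the control populations without Xist alone, the B cell-like ratio was -0.12. In neutrophil-like cells those control populations lay inside the AngII range. Some classes were small, with 21 basophil-like cells in AngII. The share of all genes with 1 sign over these classes was not counted. H2-Q7 was below 0 in all 8 classes with at least 50 UMIs, from -3.31 in neutrophil-like to -0.06 in migratory DC-like cells. In the latter the interval ran from -0.79 to 0.67. Without control C0305, 6 classes had enough UMIs, all below 0, from -1.31 to -0.15. Nonclassical monocyte-like cells held 255 CPM of H2-Q7 in control and 61.5 in AngII (-2.05, -2.81 to -1.36), but their control populations ranged from 57.1 to 531 CPM with C0305 the highest, and the ratio without it was -1.14 (-1.97 to -0.37). Tapbp was split, with 5 of 9 ratios below 0, and Tap2 with 5 of 8. In B6.SLE123 H2-K1 was below 0 in 7 of 12 classes, with a median of -0.05, and without control C0305 it was above 0 in 9 of 12, with a median of 0.15.

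**Figure D5:**
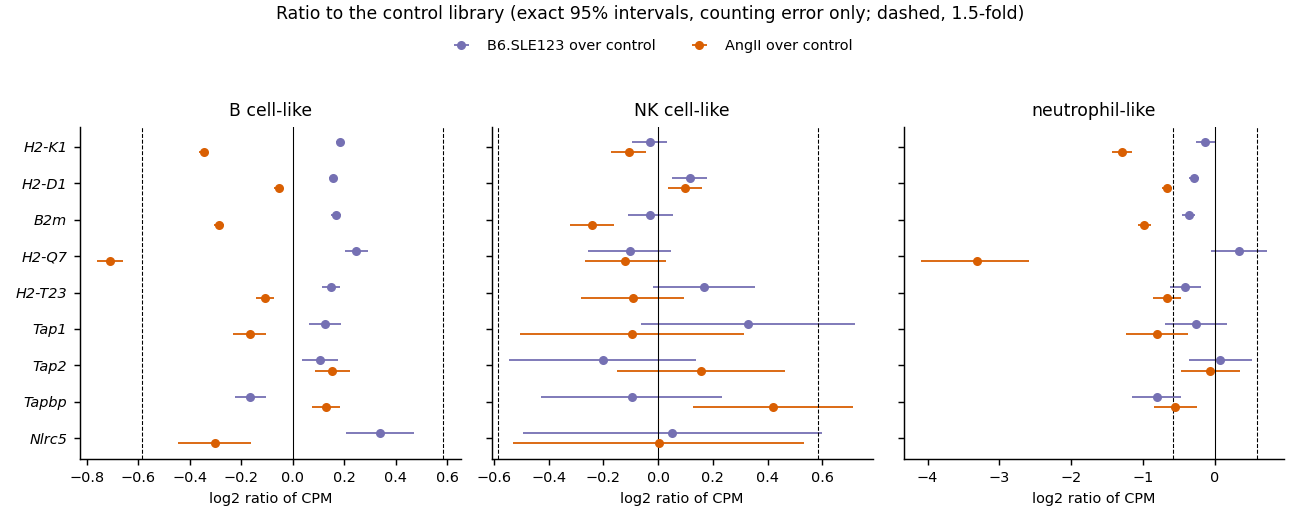
Log2 ratio of CPM to the control library with exact 95% intervals for the genes with at least 50 UMIs in B cell-, NK cell- and neutrophil-like cells, 1 colour per contrast. Neutrophil-like ratios for AngII reach -3.31 at H2-Q7 with control C0305 included, NK cell-like points stay between the dashed lines at 1.5-fold, and the panels have x axes of different width.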

How the data were processed

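Single splenocytes were measured with the 10x Genomics v2 5′ kit, 1 library per group. The authors deposited unnormalized UMI counts of genes and hashtags for each cell barcode. They had used Cell Ranger, version 6.0.0 according to the headers, with the mm10 build. From these counts, barcodes with over 200 and under 3500 genes and under 15% mitochondrial UMIs were kept. A hashtag was positive above an Otsu threshold on log counts, and barcodes with several hashtags were removed as doublets, 1809 to 3670 per library. Doublets within a hashtag could not be seen. Of the filtered matrices, 13488 to 16229 kept cells per library had 1 hashtag.

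A cell took the class with the highest share of its markers detected, given at least 2. Cells in which a further class reached 50% of its markers, 148 to 367 per library, were left out of all classes, as were 31 to 54 tied and 177 to 340 unclassed cells. UMIs were summed per class and library or hashtag. Ratios carry exact conditional 95% intervals, and a call was a ratio of at least 1.5 among genes with at least 50 UMIs over both libraries. A count of 0 allows at most 3 counts of the total. The named genes were all 9 members, the 3 highest and 3 lowest ratios of the pathway lists per contrast in B cell-like cells, and the 5 genes most alike over classes. Members and lists were chosen with earlier results of these data known. Interval coverage was tested on simulated data. Alternatives used Leiden clusters (scanpy 1.11.5) and TMM factors (edgeR 4.0.16), the latter only for scaling. No difference between hashtag populations was tested, and their mean was used only as an alternative level. Dixon's criterion was applied to sets of 6 hashtag populations only to list those that stood apart.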

Additional observations from a re-analysis of the deposited data

Results flagged for a closer look

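Among the 27 sets of 6 hashtag populations (9 genes in B cell-like cells of 3 libraries), 5 held a population that stood apart, with a gap to the next one, as a share of the whole range, above Dixon's 95% critical value for 6 samples. Chance flags about 1 set in 20. Of the 5, 4 were control hashtag C0305. It stood at 2852 CPM of H2-K1 with the next control population at 2023, at 480.7 CPM of H2-Q7 with the next at 251.9, at 541 CPM of H2-T23 with the next at 446.7, and at 43.8 CPM of Nlrc5 with the next at 28.6. These 4 values come from the same cells and are not independent. The other was H2-D1 in AngII hashtag C0301, at 1939 CPM with the next population at 1849. The criterion treats the 6 populations of a library as alike, whereas the control set mixes 3 populations with Xist and 3 without.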

How the results depend on the processing

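The median log2 ratio of the 9 genes in B cell-like cells kept its sign under every alternative run, 14 for B6.SLE123 and 13 for AngII beside leaving out hashtags. For B6.SLE123 (0.16) it was 0.14 with Leiden clusters, 0.19 with cells thinned to 1000 UMIs, 0.22 with the gene limits read as UMIs, 0.19 with median-of-ratios size factors and 0.20 with a stricter gate. It was 0.062 against the control populations with Xist alone and, in an alternative chosen after seeing the data, 0.23 without the marginal zone and germinal centre subsets. In a further one, against the control populations with Xist except C0305, it was 0.20. For AngII (-0.17) it was -0.23 with median-of-ratios size factors and -0.35 against the control populations with Xist alone, which the AngII populations lack. Against the control populations without Xist, chosen after seeing the data, it was -0.030, H2-D1 (0.044) and Tap1 (0.032) turned above 0, and 0 genes were past 1.5-fold lower. Leaving out 1 hashtag at a time gave 0.12 to 0.23 and -0.23 to -0.061. The value of -0.061, and the loss of the 1 gene past 1.5-fold lower in AngII (0 to 1), came without control C0305. The counts past 1.5-fold higher in B cell-like cells stayed at 0 throughout. Against the control populations with Xist alone, H2-K1 (-0.02), H2-Q7 (-0.13) and Tap1 (-0.06) turned below 0 in B6.SLE123. No paired analysis was possible because each group is 1 library and hashtag numbers name no shared animal. Depth limits Nlrc5 outside B cells, and 1 library per group leaves the variation between mice unknown.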
